A study of Mus musculus with 8 samples.

Results

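Neuroplastin, its paralogs basigin and embigin, and the plasma membrane calcium pumps that neuroplastin binds were examined in ribosome-associated RNA from cortical synaptosomes of P15 mice. The members were the rows of the deposited table whose gene symbol is Nptn, Bsg, Emb, Atp2b1, Atp2b2, Atp2b3 or Atp2b4. Each symbol had a single row, which gave 7 members of 56576 genes in all, and all 7 passed the filter on low values described below. Control mice had the genotype Lhx6-Cre;Erbb4+/+;Rpl22HA/HA. The genotype of Erbb4 conditional mutants was Lhx6-Cre;Erbb4F/F;Rpl22HA/HA, and each genotype had 4 libraries at postnatal day 15. Both genotypes therefore carried Cre and the Rpl22 allele that tags ribosomes with HA, and they differed in the floxed Erbb4 allele. Lhx6-Cre acts in early postmitotic interneurons of the medial ganglionic eminence (MGE) and preoptic area, so that HA pulldown from synaptosomes, which are pinched-off nerve terminals with attached postsynaptic membrane, enriches RNA bound by ribosomes at synapses of PV+ and SST+ interneurons. The comparison asks which of these ribosome-bound transcripts differ when interneurons lack the receptor tyrosine kinase ErbB4.

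Neuroplastin, basigin and embigin are glycoproteins of the immunoglobulin superfamily that cross the membrane once. Neuroplastin and basigin are auxiliary subunits of the plasma membrane calcium ATPases (PMCAs), which use ATP to carry calcium out of the cell and are stimulated by calmodulin, and neuroplastin is needed for normal PMCA levels in neurons. Basigin and embigin also escort monocarboxylate transporters to the cell surface. Of the pumps, PMCA1 (Atp2b1) and PMCA4 (Atp2b4) are found in many tissues, whereas PMCA2 (Atp2b2) and PMCA3 (Atp2b3) are enriched in neurons.

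Erbb4 served as a check of the labels. In controls, Erbb4 had 1640, 5377, 4306 and 3034 normalized counts in replicates 1, 3, 4 and 5, and in Erbb4 conditional mutants it had 1711, 1648, 1233 and 1048 in replicates 2, 3, 4 and 5. The library labelled control replicate 1 thus lay below mutant replicates 2 and 3, while the other 3 controls lay above every mutant. The log2 fold change of Erbb4 (mutant minus control) was -1.25 (SE 0.34), with an unadjusted limma p of 0.00412 and an adjusted p of 0.58 (limma, Benjamini-Hochberg over all genes tested). The exact two-sided permutation test gave p = 0.0857, where 0.0286 is the smallest value that 4 libraries against 4 allow. Without the library labelled control replicate 1, the log2 fold change was -1.58 (SE 0.26). These values cover the constitutive regions of the whole gene, and which exons the floxed allele removes is not given in the sources used here. For that reason, log2 fold changes without the library labelled control replicate 1 are given for Erbb4, the members and the gene lists, and calls that it changed are named. Reads on genes ranged from 51010687 to 80226984 in controls and from 58967504 to 74609576 in mutants. The library labelled control replicate 1 had the fewest genes above 0, 28247 against 31141 to 34364 in the others. Control replicate 5 had fewer reads on genes (51010687 against 52785970) but 32714 genes above 0.

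Tests covered the 31171 genes whose normalized counts, which are reads on a gene divided by the size factor of its library, averaged 10 or more in either genotype. Of these, 988 (3.17%) were called lower and 1241 (3.98%) were called higher in Erbb4 conditional mutants, where calling took a fold change of 1.5 or more and an unadjusted limma p no higher than 0.05. Among the 7 members, 1 was called lower (Nptn) and 0 were called higher. Without the library labelled control replicate 1, 643 genes were called lower and 871 higher, and 0 of the members were called. The number of members called lower was also 0 without control replicate 3, mutant replicate 4 or mutant replicate 5, while it was 3 without control replicate 5 and 2 without mutant replicate 3. All 4 mutants lay below all 4 controls in 2.17% of genes and above them in 2.76%, and 0 of the 7 members were separated in this way in either direction. At an adjusted p under 0.05 (limma), 14 genes were lower and 0 higher, and no member was among the 14. An unadjusted limma p under 0.05 took in 1175 lower genes and 1421 higher ones. The median log2 fold change over all genes tested was 0.06. Scaling by the total reads of each library in place of the size factors raised log2 fold changes by a median of 0.18 and changed the share of calls that were lower from 44.3% to 15.5%, so the position of each member among all genes is given too. The share of genes tested with a lower log2 fold change was 7.87% for Nptn, 13.9% for Bsg, 8.98% for Emb, 24.2% for Atp2b1, 46.8% for Atp2b2, 18.2% for Atp2b3 and 37.4% for Atp2b4.

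The members of the neuroplastin family share a membrane-spanning segment with a charged residue inside it, a feature that is unusual in such segments. The coding bases around that residue are printed from the longest complete coding transcript of each gene (GENCODE M21, GRCm38, coding strand), with the glutamate codon inside the segment in capitals and 12 codons on each side, to show how alike the 3 genes are where they cross the membrane.
Nptn: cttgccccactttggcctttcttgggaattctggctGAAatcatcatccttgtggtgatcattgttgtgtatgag
Bsg: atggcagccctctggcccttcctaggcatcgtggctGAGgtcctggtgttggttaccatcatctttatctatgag
Emb: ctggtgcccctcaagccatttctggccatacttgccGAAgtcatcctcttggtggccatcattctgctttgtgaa
The window was found as the 24 codons with the highest summed hydropathy after the first 40 codons, and it held a single glutamate codon in each gene (codon 348 of Nptn, 338 of Bsg and 273 of Emb). The glutamate codon that ends each printed stretch lies outside that window. Of the 75 bases, 47 were identical between Nptn and Bsg, 48 between Nptn and Emb and 47 between Bsg and Emb. Over the aligned coding sequences, identity was 60.9% for Nptn and Bsg, 59.3% for Nptn and Emb and 60.2% for Bsg and Emb. The longest run of identical bases shared by the transcripts used was 16 between Nptn and Bsg, 11 between Nptn and Emb and 10 between Bsg and Emb.

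Nptn (chromosome 9, 58582240 to 58657955, mm10, plus strand) encodes neuroplastin. Its normalized counts were 71147, 69088, 34222 and 20694 in control replicates 1, 3, 4 and 5, and 28451, 30440, 17879 and 15850 in mutant replicates 2, 3, 4 and 5. The library labelled control replicate 1 and control replicate 3 were high, control replicate 4 lay just above the mutants, and control replicate 5 lay among them. The control mean was 48788 ± 25255 (SD, n = 4) and the mutant mean 23155 ± 7356 (SD, n = 4). Nptn met the thresholds of a call in Erbb4 conditional mutants, at 0.515 times the control level (log2 fold change -0.96, SE 0.41, 95% confidence interval -1.85 to -0.06), with an unadjusted limma p of 0.0383 and an adjusted p of 0.58 (limma). The exact two-sided permutation test gave p = 0.114. Relative to the median of all genes tested, its log2 fold change was -1.01. Neuroplastin was picked as a candidate by the study from these same libraries, so its direction here is not independent evidence.

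The call of Nptn rested on several libraries. Without the library labelled control replicate 1 the log2 fold change was -0.72 (unadjusted limma p of 0.105), without control replicate 3 it was -0.73, and without mutant replicates 4 or 5 it was -0.85 or -0.79, and in none of these fits was Nptn called. Scaling by total reads, which raised the median of all genes by 0.18, gave -0.77 and an unadjusted limma p of 0.0529.

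Most Nptn protein in the brain comes as a form with 3 immunoglobulin domains (Np65), which neurons make, or as a shorter and more widespread form that lacks the outermost domain (Np55). In the annotation, a coding exon of 348 bases (chromosome 9, 58618663 to 58619010) was present in 1 and skipped in 3 of the 6 coding transcripts of Nptn. Bsg likewise had a coding exon of 348 bases (chromosome 10, 79708697 to 79709044) that 1 of its 4 coding transcripts included and 2 skipped. Because the deposited values count reads on constitutive regions, they give a single level for each gene and do not separate the forms.

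Bsg (chromosome 10, 79704358 to 79711979, plus strand) encodes basigin, which is also abundant in the endothelium of brain vessels. Bsg had 315147, 392104, 208776 and 133740 normalized counts in control replicates 1, 3, 4 and 5, and 223954, 224018, 115821 and 92972 in mutant replicates 2, 3, 4 and 5. Mutant replicates 2 and 3 were almost equal and lay within the control range, and mutant replicates 4 and 5 lay below every control. The log2 fold change was -0.67 (SE 0.44, 95% confidence interval -1.65 to 0.31, unadjusted limma p of 0.16), so Bsg was not called, and it was -0.54 without the library labelled control replicate 1. The exact two-sided permutation test gave p = 0.2 for Bsg. With the replicate number as a block, a fit that compares genotypes over replicates 3, 4 and 5, Bsg was called lower (-0.73).

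Emb (chromosome 13, 117220573 to 117274415, plus strand) encodes embigin. Its normalized counts were 2964, 2608, 1019 and 589 in control replicates 1, 3, 4 and 5, and 1055, 1059, 636 and 557 in mutant replicates 2, 3, 4 and 5. As with Nptn, the library labelled control replicate 1 and control replicate 3 stood high. Control replicates 4 and 5 both overlapped the mutants. Emb had a log2 fold change of -0.89 (SE 0.48, 95% confidence interval -1.96 to 0.18, unadjusted limma p of 0.0948), which was no call. Without the library labelled control replicate 1 it was -0.55, and without control replicate 5 it was -1.33 and Emb was called lower. Count tests on the recovered reads called Emb lower, at -1.08 with edgeR and -1.09 with DESeq2. The exact two-sided permutation test gave p = 0.257. Emb was also called lower with the replicate number as a block (-0.69).

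**Figure D1:**
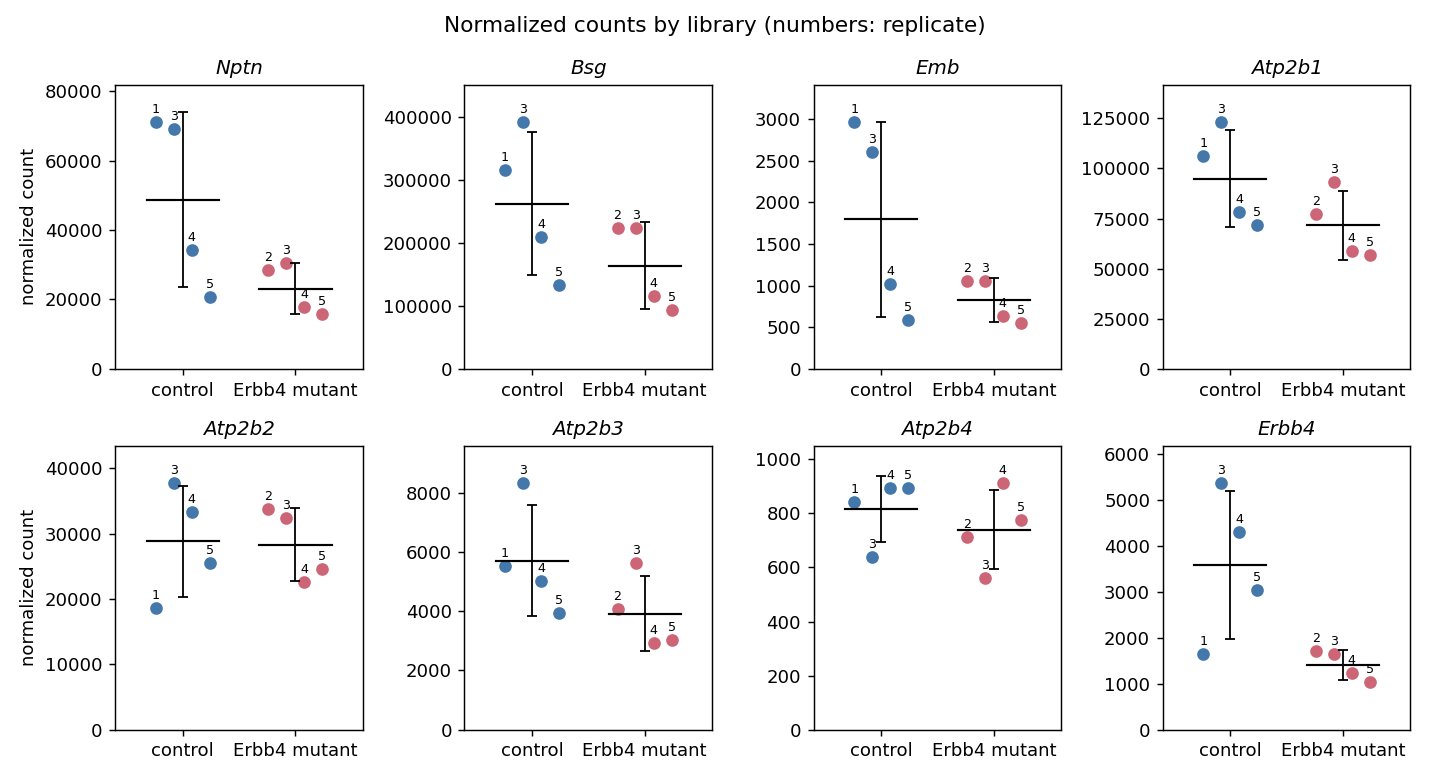
Normalized counts (vertical axes, each from 0) of the 7 members and Erbb4 in the 4 control and 4 Erbb4 conditional mutant libraries, with the replicate number beside each point, the mean as a line and the SD as a bar. Nptn and Emb are high in the library labelled control replicate 1 and in control replicate 3, Atp2b4 lies between 559 and 914 in all 8 libraries, and Erbb4 in the library labelled control replicate 1 (1640) lies among the mutants.

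The 4 pumps are P-type ATPases, which pass through a phosphorylated state at an aspartate within a short conserved motif. The coding bases of that motif (5 codons, in capitals) are printed for 3 of them with 10 codons on each side, to show how alike these genes are there. They come from the longest complete coding transcript of each gene (GENCODE M21, GRCm38, coding strand).
Atp2b1: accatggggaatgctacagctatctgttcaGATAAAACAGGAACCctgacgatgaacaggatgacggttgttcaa
Atp2b2: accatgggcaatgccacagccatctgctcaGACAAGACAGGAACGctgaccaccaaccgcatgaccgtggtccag
Atp2b4: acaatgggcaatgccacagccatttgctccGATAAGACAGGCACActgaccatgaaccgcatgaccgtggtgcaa
The motif occurred once in each of these coding sequences, at codon 475 of Atp2b1, 499 of Atp2b2 and 466 of Atp2b4. Of the 75 bases, 59 were identical between Atp2b1 and Atp2b2, 59 between Atp2b1 and Atp2b4 and 65 between Atp2b2 and Atp2b4. Over the aligned coding sequences, identity ran from 72.1% (Atp2b1 and Atp2b4) to 78.2% (Atp2b2 and Atp2b3), and the longest identical run between the transcripts used was 56 bases, in Atp2b2 and Atp2b3. Read length is not given in the sources used here, so the share of reads that could map to both genes was not computed, and the level of Atp2b3, the lower of this pair, is the more uncertain one.

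Atp2b1 (chromosome 10, 98914642 to 99026143, plus strand) encodes PMCA1. It had 106263, 123165, 78173 and 71985 normalized counts in control replicates 1, 3, 4 and 5, and 77154, 93395, 58738 and 57049 in mutant replicates 2, 3, 4 and 5. Mutant replicates 2 and 3 lay within the control range and mutant replicates 4 and 5 below it. Its log2 fold change was -0.40 (SE 0.29, 95% confidence interval -1.03 to 0.23, unadjusted limma p of 0.187), and -0.34 without the library labelled control replicate 1.

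Atp2b2 (chromosome 6, 113743834 to 114042080, minus strand) encodes PMCA2, the pump with the fastest activation. Its normalized counts were 18690, 37802, 33306 and 25484 in control replicates 1, 3, 4 and 5, and 33739, 32460, 22546 and 24537 in mutant replicates 2, 3, 4 and 5. The lowest of the 8 values was that of the library labelled control replicate 1, and the 4 mutants lay within the control range. The log2 fold change was 0.00 (SE 0.27) with a 95% confidence interval of -0.58 to 0.59, and it was -0.19 without the library labelled control replicate 1, so the data give no direction for Atp2b2.

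Atp2b3 (chromosome X, 73503085 to 73573270, plus strand) encodes PMCA3. Control replicates 1, 3, 4 and 5 had 5517, 8336, 5013 and 3950 normalized counts of Atp2b3, and mutant replicates 2, 3, 4 and 5 had 4072, 5633, 2929 and 3029. Mutant replicate 3 stood above the other mutants and above every control except replicate 3. The log2 fold change was -0.54 (SE 0.28, 95% confidence interval -1.16 to 0.07, unadjusted limma p of 0.0793), the lowest of the 4 pumps, and it was -0.54 without the library labelled control replicate 1. Atp2b3 was called lower without control replicate 5 (-0.70) and without mutant replicate 3 (-0.73).

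Atp2b4 (chromosome 1, 133702674 to 133800755, minus strand) encodes PMCA4. Its values were 843, 638, 895 and 894 normalized counts in control replicates 1, 3, 4 and 5, and 711, 559, 914 and 774 in mutant replicates 2, 3, 4 and 5. Unlike the neuroplastin family, Atp2b4 was lowest in replicate 3 of either genotype. Atp2b4 had a log2 fold change of -0.15 (SE 0.24, 95% confidence interval -0.68 to 0.37), and -0.13 without the library labelled control replicate 1, and it was 0.03 when scaled by total reads. Exact two-sided permutation tests gave p = 0.143 for Atp2b1, p = 1 for Atp2b2, p = 0.2 for Atp2b3 and p = 0.457 for Atp2b4. With adjusted p from 0.58 to 0.996 (limma), 0 of the 7 members differed between genotypes after adjustment.

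**Figure D2:**
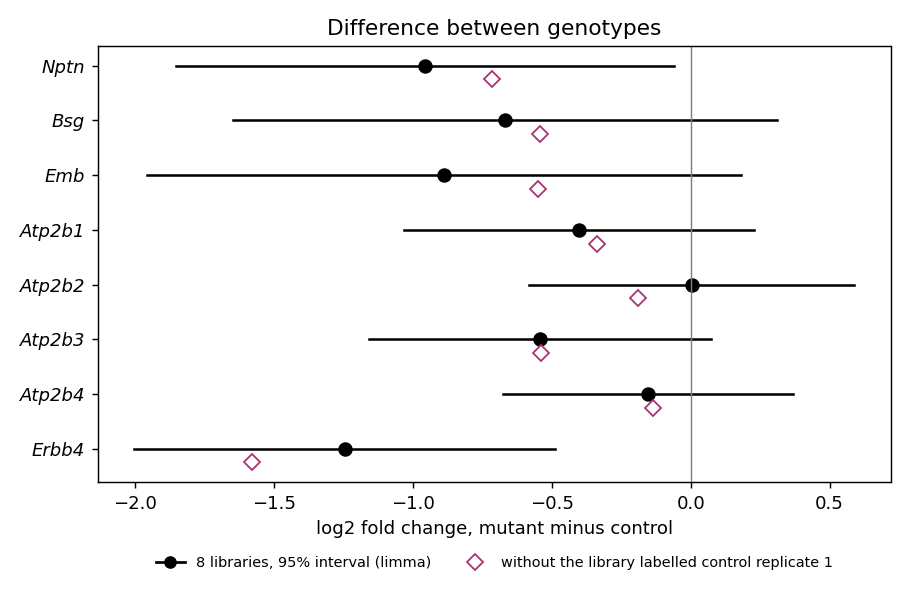
Log2 fold change (mutant minus control, horizontal axis) of each member and Erbb4, with 95% confidence intervals from limma as bars and the value without the library labelled control replicate 1 as an open diamond. The interval of Nptn ends at -0.06, those of the other 6 members include 0, and without that library Nptn stands at -0.72 and Erbb4 at -1.58.

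Levels were compared between genes per kb of the longest annotated transcript, since the length of the regions counted is not given. On this scale Bsg was highest in all 8 libraries, at 171980 ± 74749 normalized counts per kb (SD, n = 4) among controls and 107596 ± 45657 among mutants. Nptn, at 10768 ± 5574 per kb in controls, and Atp2b1, at 13310 ± 3371, came next and differed by less than the SD of either there, while mutants had 5110 ± 1623 for Nptn and 10040 ± 2406 for Atp2b1, which differed by more than the sum of their SDs. Nptn was above Atp2b1 in the library labelled control replicate 1 alone. Atp2b2 (3247 ± 953 per kb in controls), Atp2b3 (1230 ± 404), Emb (614 ± 399) and Atp2b4 (69.7 ± 10.4) took places 4 to 7 in every library. The levels of Atp2b3 and Emb differed by less than the sum of their SDs in controls, and the other neighbours in this lower part of the order by more.

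The make-up of the PMCA sum was described without a test. Atp2b1 made up 80.9%, 72.5%, 66.6% and 70.4% of the summed normalized counts of the 4 pumps in control replicates 1, 3, 4 and 5, and 66.7%, 70.7%, 69.0% and 66.8% in mutant replicates 2, 3, 4 and 5. The library labelled control replicate 1 stood apart with the most Atp2b1 and the least Atp2b2 (14.2%, against 22.2% to 29.2% elsewhere). Atp2b3 made up 3.44% to 4.91% and Atp2b4 0.376% to 1.07% over the 8 libraries. In the neuroplastin family, Bsg made up 81.0% to 88.4% of the sum, Nptn 11.2% to 18.3% and Emb 0.380% to 0.761%. The share of Nptn in that sum was 15.1% ± 2.19 (SD, n = 4) for controls and 12.7% ± 1.46 (SD, n = 4) for mutants, with overlap.

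The ratio of Nptn to the PMCA sum, the binding partners of its protein, was 0.542, 0.407, 0.292 and 0.202 in control replicates 1, 3, 4 and 5, and 0.246, 0.231, 0.210 and 0.186 in mutant replicates 2, 3, 4 and 5. Control replicates 3 and 4 and the library labelled control replicate 1 lay above every mutant, and control replicate 5 lay below 3 of the 4 mutants. Controls spanned a wider range (SD 0.147) than mutants (SD 0.0261). The ratio of Bsg to Nptn ran from 4.43 to 6.46 in controls and from 5.87 to 7.87 in mutants.

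**Figure D3:**
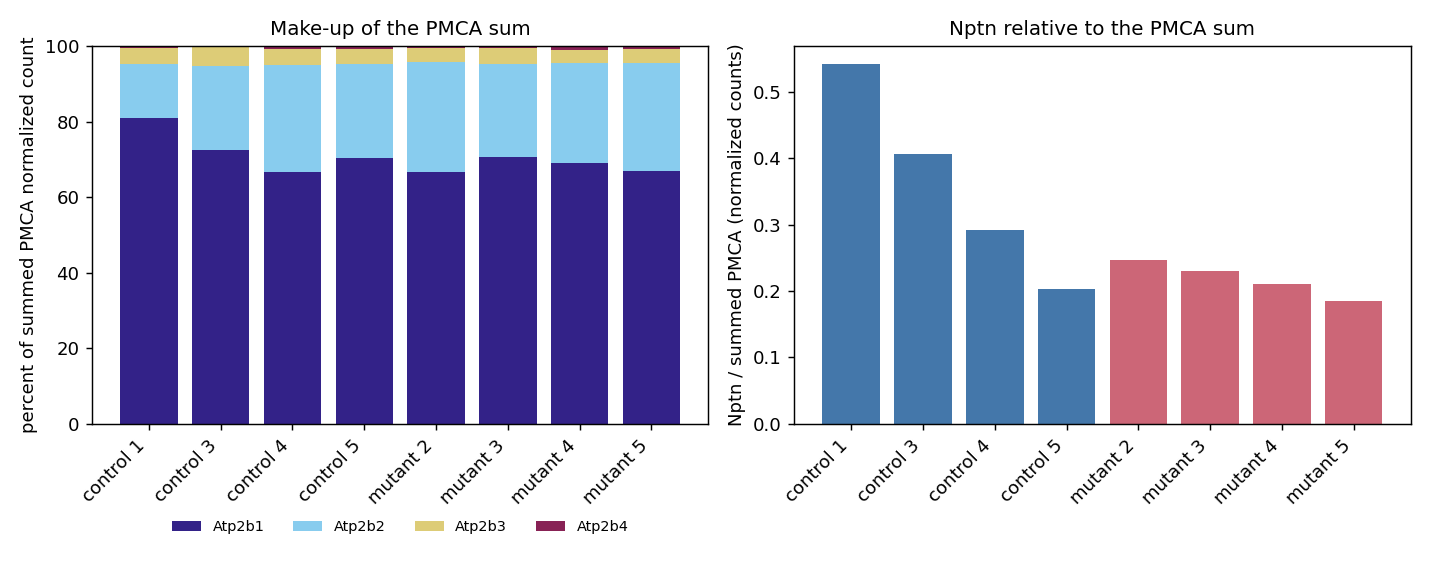
Left, percent of the summed PMCA normalized count (vertical axis) contributed by each pump in each library (horizontal axis); right, Nptn divided by the PMCA sum, from 0, with controls in blue and Erbb4 conditional mutants in red. Atp2b1 is the main part in every library, and the ratio is 0.542 in the library labelled control replicate 1 and 0.186 to 0.246 in mutants.

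Genes that work beside the members were taken from 7 lists of 42 genes, of which 2 were called lower and 2 higher (3.17% and 3.98% of all genes tested). Of the 7 neuroplastin and basigin partners, 0 were called lower and 1 higher, with a median log2 fold change of -0.26 (-0.31 without the library labelled control replicate 1). The one called was Traf6, a ubiquitin ligase that binds neuroplastin, which went from 1668 ± 734 normalized counts (SD, n = 4) among controls to 3189 ± 1005 among mutants (log2 fold change 1.01, SE 0.37), and without the library labelled control replicate 1 its change was 0.65 and still a call. Among the 4 monocarboxylate transporters 0 were called, the median was -0.30, and Slc16a1 (MCT1), which basigin escorts, stood at 0.14 (SE 0.35). These were -0.33 and 0.02 without the library labelled control replicate 1.

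Other routes of calcium out of the cytosol gave single calls. Of the 5 internal store calcium pumps, Atp2a3 (SERCA3) was called higher, from 8428 ± 2959 normalized counts (SD, n = 4) among controls to 16440 ± 1891 among mutants, with all 4 mutants above all 4 controls. Its log2 fold change was 1.04 (SE 0.29) and 0.74 without the library labelled control replicate 1, where it was still called. Atp2a2 (SERCA2), with the highest normalized counts of that list, had -0.44 (SE 0.42), and the list median was -0.21, which became -0.63 and -0.54 without the library labelled control replicate 1. Of the 7 sodium-calcium exchangers, which trade sodium for calcium across the plasma membrane, Slc24a2 was called lower, at 4391 ± 1137 normalized counts in controls and 2841 ± 268 in mutants (log2 fold change -0.60, SE 0.21). All 4 mutants lay below all 4 controls for Slc24a2, but without the library labelled control replicate 1 its change was -0.44 and it was not called. Slc8a1 (NCX1), the exchanger with the highest normalized counts, stood at -0.40 (SE 0.26), and the list median was -0.35 (both -0.39 without that library).

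Of the 6 calcium buffers and calmodulin genes, Pvalb, the parvalbumin that names PV+ interneurons, was called lower, from 2880 ± 2257 normalized counts (SD, n = 4) among controls to 764 ± 645 among mutants. Its log2 fold change was -2.08 (SE 0.78), and -1.89 without the library labelled control replicate 1, where it was not called. The list median was -0.88, and -0.62 without that library. None of the 7 genes of mitochondrial calcium uptake (median -0.08, Micu2 at 0.08 with SE 0.18) and 0 of the 6 Na,K-ATPase subunits (median -0.60) were called. By comparison, the median was -0.89 over the 3 genes of the neuroplastin family and -0.28 over the 4 PMCA pumps, and 0.06 over all genes tested. Without the library labelled control replicate 1, these medians were -0.55, -0.26 and -0.01, and those of mitochondrial calcium uptake and Na,K-ATPase subunits were -0.02 and -0.38.

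**Figure D4:**
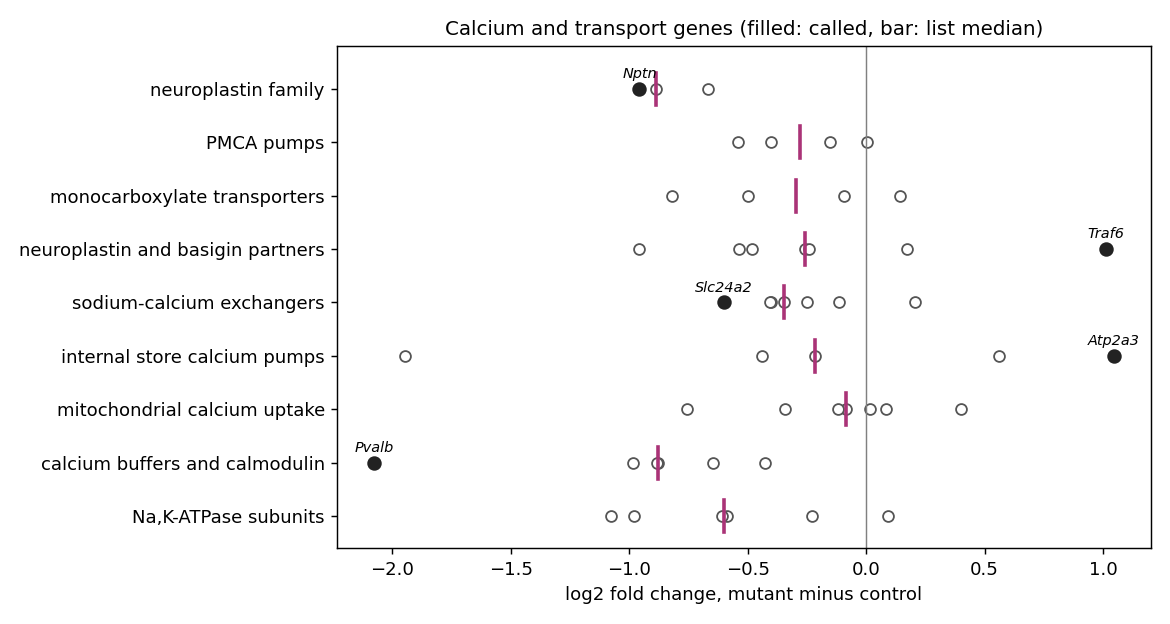
Log2 fold change (mutant minus control, horizontal axis) of each gene of the neuroplastin family, the PMCA pumps and the 7 other lists, with called genes filled and named and each list's median as a vertical bar. Nptn, Slc24a2 and Pvalb are called lower, at -0.96, -0.60 and -2.08, and Traf6 and Atp2a3 are called higher, at 1.01 and 1.04.

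To find the genes whose pattern over the 8 libraries was most like that of Nptn, log2 profiles were centred on each gene's own mean, and the root mean square difference from Nptn was taken for 19136 other genes whose normalized counts averaged 100 or more. The nearest were Tspan7 (0.0797), Tspan3 (0.0849), Ldhb (0.0854), Cyp46a1 (0.0865) and Nme1 (0.0987), where the median gene was at 0.887. Tspan7 and Tspan3 encode tetraspanins, Ldhb a lactate dehydrogenase subunit, Cyp46a1 the cholesterol 24-hydroxylase of neurons, and Nme1 a nucleoside diphosphate kinase. Tspan7 had 101658, 100373, 46168 and 33353 normalized counts in control replicates 1, 3, 4 and 5 and 25103 to 46908 in mutants, with overlap. Ldhb (-0.94), Cyp46a1 (-1.02) and Nme1 (-0.93) were called lower, while Tspan7 (-0.87, unadjusted limma p of 0.0505) and Tspan3 (-0.82) were not. Of all genes tested, 3.17% were called lower. Because these 5 genes were chosen for their nearness to Nptn over the same libraries, log2 fold changes near that of Nptn follow from the choice. They are not further evidence of a difference between genotypes. Emb was the closest member to Nptn (0.168, rank 80) and Bsg came next (0.236, rank 316). Atp2b3 (0.411, rank 1462) and Atp2b1 (0.439, rank 1706) were farther, and Atp2b2 (0.787, rank 7351) and Atp2b4 (0.869, rank 9179) were close to the median gene. Among all pairs of members the smallest difference was between Atp2b1 and Atp2b3 (0.149).

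Summed markers of the tagged cells were lowest in mutant replicate 5, as were the genes of the neuroplastin family, but single markers such as Nefh and Chodl were not, and the library labelled control replicate 1 was not high in every panel. In bulk libraries, fewer synapses or cells of a type and less RNA in each cannot be told apart. Of 10 markers of PV+ interneurons, 6 were called lower (Pvalb, Kcnc1, Syt2, Pthlh, Nefh and Cplx1), with a median of -1.15 (-1.09 without the library labelled control replicate 1). Over all genes tested, 3.17% were called lower and 3.98% higher, shares that apply beside the counts of every panel. No marker of any panel had an adjusted p under 0.05 (limma). The summed normalized count of the panel was 121810, 199385, 97916 and 57557 in control replicates 1, 3, 4 and 5, and 75225, 76105, 42157 and 38174 in mutant replicates 2, 3, 4 and 5. Like Nptn, this sum was highest in control replicate 3 and the library labelled control replicate 1. Without that library 4 of the 10 were called lower (Kcnc1, Syt2, Pthlh and Nefh). Nefh, a neurofilament subunit, had a log2 fold change of -0.84 (SE 0.21) and no overlap between genotypes, and Cplx1, the complexin with the highest normalized counts of the panel, had -1.19 (SE 0.46) and -1.03 without that library.

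Of 10 markers of MGE-derived interneurons, Gad1 and Gad2, which make GABA, were called lower (log2 fold changes -1.04 and -0.93). These changes were -0.92 and -0.97 without the library labelled control replicate 1, where neither was called, and the panel median was -0.81 with and without it. The sum of this panel was 177437, 388361, 229411 and 112092 in control replicates 1, 3, 4 and 5, and 179153, 189510, 74591 and 53760 in mutant replicates 2, 3, 4 and 5, so that, unlike for Nptn, the library labelled control replicate 1 lay below mutant replicates 2 and 3. Lhx6 had a log2 fold change of -0.69 (SE 0.32) and Rpl22, whose tagged protein was pulled down in both genotypes, of -0.47 (SE 0.32), which were -0.70 and -0.20 without that library, and neither was called. Of 10 markers of SST+ interneurons, only Chodl was called lower, at -1.32 (SE 0.56), though 9 of the 10 lay below 0. The panel median was -1.26, and -0.96 without the library labelled control replicate 1. The sum of that panel ran from 78733 to 604513 in controls and from 24153 to 244917 in mutants, and Sst, its main part, stood at -1.50 (SE 1.01). Without the library labelled control replicate 1 it stood at -1.29, Chodl at -1.19 was not called, and Elfn1 and Nos1 were called lower (-0.90 and -0.85, from -0.79 and 0.10 with it). Nos1 had 58.6 normalized counts in that library and 418 to 1083 in the others. The part of these panels in the levels of Nptn, Bsg and Emb was not tested.

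Every panel of other cells had reads in each library, and of the list and panel genes with a row, 0 were at 0 in all 8. Of 9 tested markers of CGE-derived interneurons, 0 were called (median -0.60, and -0.33 without the library labelled control replicate 1). Their sum ran from 35104 to 74945 in controls and from 27926 to 49772 in mutants, and Reln, the most abundant, stood at -0.48 (SE 0.40) and at -0.70 without that library. The panel of excitatory neurons had 1 of 10 called lower (Neurod6, -0.70) and 1 higher, with sums of 116096 to 153995 in controls and 111540 to 138169 in mutants, and with Slc17a7, the most abundant, at -0.15 (SE 0.25) and at -0.22 without that library. Of 10 astrocyte markers 0 were called (median -0.03, sums of 137729 to 234885 in controls and 144950 to 162676 in mutants, Aldoc at -0.48 with SE 0.29, or -0.27 without the library labelled control replicate 1). Of 10 microglia markers 0 were called (median -0.44, or -0.23 without that library, sums of 26620 to 53208 in controls and 27696 to 33070 in mutants, Csf1r at -0.11 with SE 0.18).

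The sum of oligodendrocyte markers was highest in the library labelled control replicate 1, though Cnp was highest in control replicate 5. This sum was 673772 in the library labelled control replicate 1, 229955 to 362807 in the other controls and 202878 to 287269 in mutants, mainly through Mbp (log2 fold change -0.64, SE 0.40, and -0.32 without that library). Mog, Mag and Opalin, 3 of the 10, were called lower (-0.73, -0.66 and -0.64), and without that library they stood at -0.50, -0.47 and -0.50 and were not called. This library was also the highest of the 8 for the astrocyte and microglia sums and for Nptn and Emb, and the part of these markers in the levels of Nptn and Emb was not tested.

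Endothelial markers did not all go the same way between genotypes. Of 10 endothelial markers 3 were called higher (Flt1, Kdr and Tek, at 0.69, 0.72 and 0.85) and 3 lay below 0. Cldn5, the most abundant, was among those below 0, at -0.13 (SE 0.34). The panel median was 0.37, and 0.30 without the library labelled control replicate 1. The endothelial sum was 213837, 338605, 247845 and 198034 in control replicates 1, 3, 4 and 5, and 311906, 301487, 309720 and 300616 in mutant replicates 2, 3, 4 and 5. Of 8 mural cell markers 4 were called higher (Pdgfrb, Myh11, Abcc9 and Notch3, at 1.02, 0.93, 1.25 and 1.22), with sums of 42989 to 61367 in controls and 72233 to 84527 in mutants and with Vtn, the most abundant, at 0.01 (SE 0.22) and at 0.13 without the library labelled control replicate 1. Without it, Tek (0.67) and Abcc9 (0.75) were the only vascular markers called, Flt1, Kdr, Pdgfrb, Myh11 and Notch3 stood at 0.52, 0.45, 0.56, 0.74 and 0.62, and the mural median went from 0.76 to 0.44. Of 4 erythroid markers with a row, 2 were called higher (Alas2 at 0.61 and Slc4a1 at 1.21), Hba-a1 was the most abundant (-0.07, SE 0.35, and 0.16 without that library), and their sum ran from 3814 to 11004 in controls and from 7274 to 7765 in mutants. The part of vascular RNA in the levels of Bsg and Slc16a1, both made by endothelium, was not tested.

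**Figure D5:**
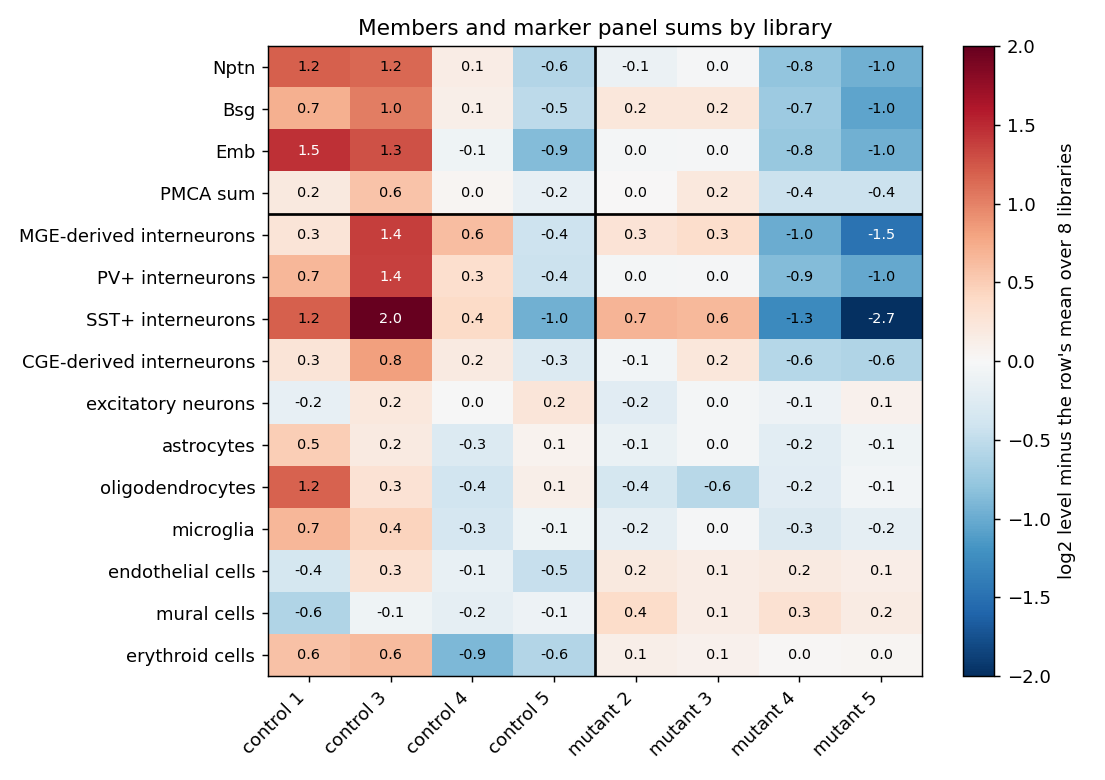
Log2 level of Nptn, Bsg, Emb, the PMCA sum and the summed normalized counts of 11 marker panels in each library (columns), minus the mean of each row over the 8 libraries, with color limited to values between -2 and 2. The interneuron panels and the neuroplastin family are highest in control replicate 3 or the library labelled control replicate 1 and lowest in mutant replicate 5, and the mural panel is higher in all 4 mutants than in all 4 controls.

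Other rows of the table overlapped each member in the genome. Tmem259 (chromosome 10, 79527651 to 79984260) spanned all of Bsg and had 1.44% of its mean normalized count, and Rec114 overlapped 5100 bases of Nptn at 0.293% of its mean normalized count. An unnamed feature inside Nptn (chromosome 9, 58599387 to 58607507) had 2.57% of the mean normalized count of Nptn, which was the highest such share for any member. Whether the counting used strand is not given in the sources used here, so reads of overlapping genes could be split between rows.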

How the data were processed

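RNA bound to HA-tagged ribosomes was sequenced from cortical synaptosomes of 4 control and 4 Erbb4 conditional mutant libraries. Genotypes and replicate numbers came from the sample labels. The deposited values are a signal, namely normalized counts. The authors' reads were aligned with STAR 2.4.0 to mm10, counted on the constitutive regions of each Mouse Fast DB gene and divided by a DESeq2 size factor for each library. Dividing each library by its smallest value above 0 gave whole reads for 100% of values (tolerance 0.01), and 51010687 to 80226984 reads on genes, so that spread between libraries limits precision more than counting error. The study describes 2 RNA sequencing batches, but the labels assign no library to either, so batch could not be fitted and its part in the differences was not tested.

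Genes whose normalized counts averaged 10 or more in either genotype were fitted with limma 3.58.1 (lmFit, eBayes with trend) in R 4.3.3 on log2(normalized count + 1), with no covariate, and with Benjamini-Hochberg adjustment over all genes tested. A call needed a fold change of 1.5 or more and an unadjusted p no higher than 0.05. Fold changes on this scale understate the change of low genes. Single members were also compared by an exact two-sided permutation test over 70 assignments. Count tests with edgeR 4.0.16 and DESeq2 1.42.0 on the recovered reads, other pseudocounts, filters and scalings, library weights, a replicate block and leaving out each library were alternatives. The procedure was also run on simulated data, and no outcome of that run is reported here.

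The members and gene lists were chosen with earlier results of these data known. Genes named are the members, Erbb4, Rpl22 and Lhx6, the most abundant gene (by mean normalized count, not per length) and every called gene of each list or marker panel, and the 5 genes nearest to Nptn. Elfn1, Nos1 and Cnp were named after their values were seen, and so were the overlapping genes. Hbb-bs and Hbb-bt had no row of that symbol, and Sncg did not pass the filter. Some genes of these lists and 1 coding stretch are not reported here. Coding sequences came from GENCODE M21 (GRCm38).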

Additional observations from a re-analysis of the deposited data

Results flagged for a closer look

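Of 164 groups of 4 values examined, 2 held a library that stood apart from the other 3 of their genotype by more than Dixon's limit, where chance flags about 1 in 20 groups. The share of Atp2b3 in the PMCA sum was 4.27% in mutant replicate 3, and 3.44% to 3.55% in the others. Hba-a1, a hemoglobin gene, was at 3116 normalized counts in mutant replicate 4 and at 3635 to 3699 in the others.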

How the results depend on the processing

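Across 19 alternatives, Nptn, Bsg, Emb, Atp2b1 and Atp2b3 had log2 fold changes below 0 in every one, and 0 members were called higher in any. With quantile normalization, Bsg (-0.25) and Atp2b1 (-0.09) were nearest to 0. Nptn was called in 13 of the 19, and its adjusted p ran from 0.146 to 0.824 (limma, edgeR and DESeq2). It lost the call with total-read scaling (-0.77) and with limma without trend (-0.96), and without 4 of the libraries in turn. Emb was called lower with edgeR (-1.08) and DESeq2 (-1.09), and Atp2b3 with library weights (-0.63). The sign of Atp2b2 turned with library weights (-0.25), edgeR (-0.0025) and DESeq2 (-0.0056), and that of Atp2b4 with total-read scaling (0.030). The number of members called lower, 1, became 0 with total-read scaling and with limma without trend, 2 with library weights, edgeR and DESeq2, and 0 at an adjusted p under 0.05.

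Genes called lower, 988, numbered 415 with total-read scaling, 1633 with library weights, 1573 with DESeq2 (1206 with edgeR) and 14 at an adjusted p under 0.05. Genes called higher, 1241, numbered 2255 with total-read scaling, 1997 with library weights and 0 at an adjusted p under 0.05 (1261 with DESeq2, 1073 with edgeR and 1421 at an unadjusted p under 0.05). The share of calls that were lower was 55.5% with DESeq2. Of the 42 list genes, 2 called lower became 5 with a pseudocount of 10, 1 with total-read scaling, quantile normalization or limma without trend, 8 with library weights, 4 with edgeR, 6 with DESeq2 and 0 at an adjusted p under 0.05, and 2 called higher became 1 with limma without trend and 0 at an adjusted p under 0.05. The cause of these changes was not tested.

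Leaving out each library in turn gave log2 fold changes of -1.31 to -0.72 for Nptn, -0.95 to -0.43 for Bsg, -1.33 to -0.55 for Emb, -0.54 to -0.27 for Atp2b1, -0.19 to 0.15 for Atp2b2, -0.73 to -0.34 for Atp2b3 and -0.27 to -0.03 for Atp2b4. It gave 0 to 3 members called lower, 515 to 1977 genes called lower (643, 551, 1537 and 1977 without control replicates 1, 3, 4 and 5, and 575 and 515 without mutant replicates 4 and 5) and 619 to 1792 called higher (619 and 714 without mutant replicates 4 and 5), and 0 to 8 list genes called lower and 1 to 2 called higher. Fewer libraries entered these fits.

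Replicate numbers 3, 4 and 5 occur in both genotypes. Same-numbered libraries deviated together with correlations of 0.10, 0.098 and 0.082 over genes, not all above 0.1, so the numbers were not taken to pair the libraries, and control replicate 5 correlated best with mutant replicate 4 (0.085). Control replicates 1 and 3 correlated above 0 with mutant replicates 2 and 3 (0.023 to 0.10), as did control replicates 4 and 5 with mutant replicates 4 and 5. Correlations across these groups were all below 0 (-0.115 to -0.029). In both genotypes, Nptn, Bsg, Emb and Atp2b1 lay above their genotype's log2 mean in the first group and below it in the second. No label ties this split to a batch, and its part in the levels was not tested. With the replicate number as a block, Bsg (-0.73) and Emb (-0.69) were called lower beside Nptn (-0.83), which made 3 members, Atp2b2 turned to -0.28, and 1719 genes and 11 list genes were called lower, with 1445 genes higher. Replicates 1 and 2 have no partner, so this fit compares genotypes over replicates 3, 4 and 5.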
